A study of Mus musculus with 16 samples.

Results

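The nuclear genes of oxidative phosphorylation were read as every gene whose symbol starts with Ndufa, Ndufb, Ndufc, Ndufs, Ndufv, Sdha, Sdhb, Sdhc, Sdhd, Uqcr, Cox4, Cox5, Cox6, Cox7, Cox8 or Atp5. The rule found 97 genes on 128 probes, of 20659 genes named on the array. Symbols came from the RefSeq accession of each probe. Of the 97 genes, 96 had a probe usable on all 16 arrays and 95 passed the filter on faint signal (signal well over background on 2 arrays or more). The genes that did not enter the tests were Ndufb9, a complex I accessory subunit whose only probe was marked by the scanner software on some array, and Cox8c, a testis isoform of a complex IV subunit that was well above background on 0 of 16 arrays. By name, the 95 tested members held 35 genes of complex I, 4 of complex II, 8 of complex III, 19 of complex IV, 17 of complex V and 12 assembly factors (the Ndufaf and Sdhaf genes, which the rule also takes in).

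The study measured total RNA of CD11b+ cells, taken from spleen or bone marrow of mice labelled male, on one-colour Agilent arrays. Mice were wild type (WT), STAT4-/-, STAT6-/- or HDC-/- (STAT4 and STAT6 are transcription factors of cytokine signalling, and HDC is the enzyme that makes histamine), and were kept on a control diet or fed a high-fat diet (HFD) for 3 months as a model of atherosclerosis. Each combination of the 4 genotypes, 2 tissues and 2 diets was measured on 1 array, with RNA pooled from 5 mice, so that no combination has a second pool. The knockouts affect the whole animal as far as the labels say, and age and strain are not among the labels used here. Nor do they say whether 1 set of mice gave both tissues. p-values therefore rest on how far the diet differences of the 4 genotypes deviate from each other within a tissue, with 6 residual degrees of freedom. How far the genotypes deviate in the spleen minus marrow difference is fitted and does not enter that spread.

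Oxidative phosphorylation passes electrons from NADH and succinate through complexes I to IV of the inner mitochondrial membrane to oxygen, and complex V (ATP synthase) uses the proton gradient this builds to make ATP. Most subunits are encoded in the nucleus and a few in the mitochondrial genome, and assembly factors insert cofactors and join modules without staying in the finished complex. Myeloid cells differ in their use of this route: neutrophils are known for relying mainly on glycolysis, while tissue macrophages depend more on their mitochondria.

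Levels below are log2 signal relative to the 75th percentile of the array, so that each gene is followed across arrays and single genes are not ranked by level. Medians over many genes are set against medians of other features of the same array only to follow them across arrays. Between 59.9% and 85.3% of probes were well above background on each array, and no spot was saturated. No label names the slide, so arrays whose file headers give the same scan date were taken to share a slide. The 4 marrow arrays of STAT6-/- and HDC-/- mice share a slide in this sense and were the dimmest, with 59.9% to 68.7% where the other slides had 70.3% or more. Arrays of the 2 diets share a slide within each genotype and tissue, spleen and marrow lie on different slides, and STAT6-/- and HDC-/- arrays lie on other slides than WT. The 4 arrays labelled STAT4-/- did not have low Stat4 signal (0.52 and 3.46 in spleen against -0.03 to 1.28 on the 6 other spleen arrays), so they are called arrays labelled STAT4-/-. Stat6 read 2.51 and 2.76 in spleen and 2.64 and 2.99 in marrow of STAT6-/- mice, within or next to the range elsewhere (2.53 to 3.90 and 2.29 to 4.09), and the position of these probes relative to the deletions is not known here. CD11b itself was bright in both tissues: its alpha chain Itgam read 4.36 ± 0.88 in spleen and 5.66 ± 0.44 in marrow (SD, n = 8 each). Markers of other cell types moved with the tissue, as given beside the tissue results. Earlier results of these data had placed 2 arrays nearer to the other tissue, the spleen array labelled STAT4-/- on HFD and the HDC-/- marrow array on control diet. The same results had set the 4 control-diet arrays of HDC-/- mice and of those labelled STAT4-/- apart by sex-linked signal. Tissue results are therefore given with and without these arrays. The 2 nearer the other tissue were picked in these data, so fits without them are no independent check of a tissue difference.

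Most members were clearly detected: 92 of the 97 genes were well above background on all 16 arrays. The exceptions besides Ndufb9 and Cox8c were Cox7b2 on 7 arrays and Cox8b on 11 (isoforms of complex IV subunits known from testis and from muscle) and Ndufa4l2 on 12, a hypoxia-induced relative of the complex IV subunit Ndufa4. The muscle form Cox6a2 and the testis form Cox6b2 passed the background mark on all 16 arrays. Over the 95 members the median level was 3.43 ± 0.25 in spleen and 3.66 ± 0.21 in marrow (SD, n = 8 arrays each). The lowest spleen array stood at 3.22 (WT, control) and the highest at 3.96 (labelled STAT4-/-, HFD). The marrow arrays ran from 3.40 (labelled STAT4-/-, HFD) to 3.92 (labelled STAT4-/-, control), so the tissues overlapped.

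The tissue comparison asked which members differed between CD11b+ cells of spleen and of marrow. Of the 12 assembly factors 7 were higher in spleen CD11b+ cells and 0 were lower, with a median difference of 0.60 on the log2 scale. Of the 83 subunits 3 were higher and 10 were lower, with a median of -0.22. The difference between these groups was not tested. Within the matched pairs, the assembly factors' median relative to all features ran from -0.49 (HDC-/-, control diet) to 1.44 (WT, control diet). On the arrays labelled STAT4-/- it was 0.31 on control diet and 0.21 on HFD. Over all 95 members this made 10 higher and 10 lower, or 21.1% called by limma at a Benjamini-Hochberg adjusted p under 0.05, while 31.9% of all 28783 features were called (15.1% higher and 16.8% lower). The median of the members was -0.21 (24 above 0, 71 below) and that of all features -0.05. In these bulk samples, fewer cells of a type and less RNA per cell cannot be told apart, and neither can tissue and slide.

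**Figure D1:**
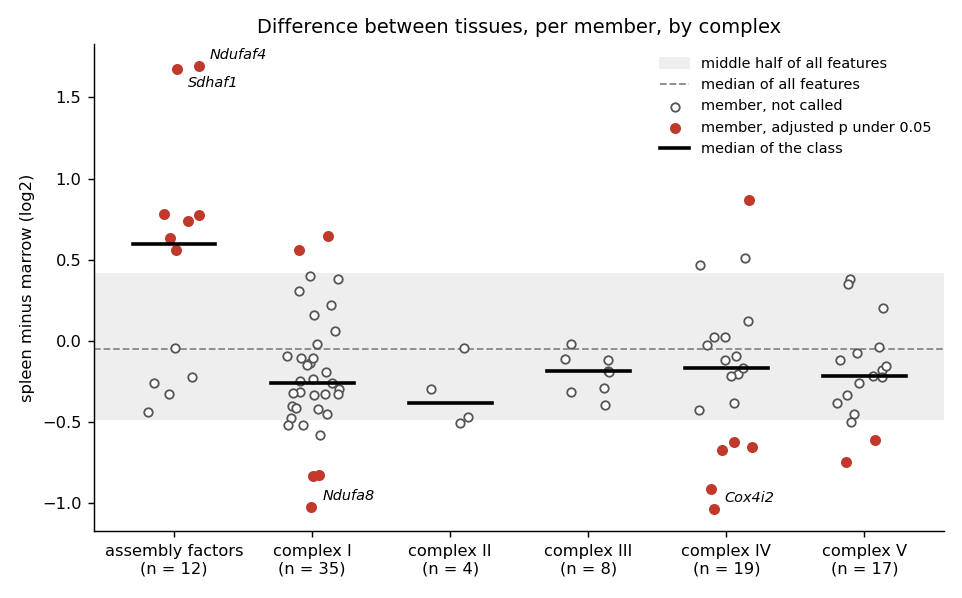
Spleen minus marrow difference (log2, y axis) of each tested member, grouped by complex (x axis). Each point is 1 gene, filled where limma's adjusted p is under 0.05, thick lines are class medians, and the grey band and dashed line are the interquartile range and the median of all 28783 features. The 7 filled points among the assembly factors all lie above 0, and 10 of the 13 filled points among the subunits lie below it.

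Most members are bright probes, and features near their level read lower in spleen at the median. Among the 3319 other features with a mean level between the members' quartiles (1.89 and 4.40), the median difference was -0.33, 8.23% were called higher and 32.4% lower. The subunits' median of -0.22 and their 12% called lower thus lay no further down than in features of like level. The assembly factors' median level (-0.03 in spleen and -0.29 in marrow, means over 8 arrays) lay below this range, and features of their level were not set beside them. Features of like level read 2.78 ± 0.12 on the spleen arrays and 3.09 ± 0.13 on the marrow arrays (SD, n = 8). The members stood above them by 0.65 ± 0.16 in spleen and 0.56 ± 0.18 in marrow, with overlapping ranges of 0.42 to 0.89 and 0.35 to 0.82.

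**Figure D2:**
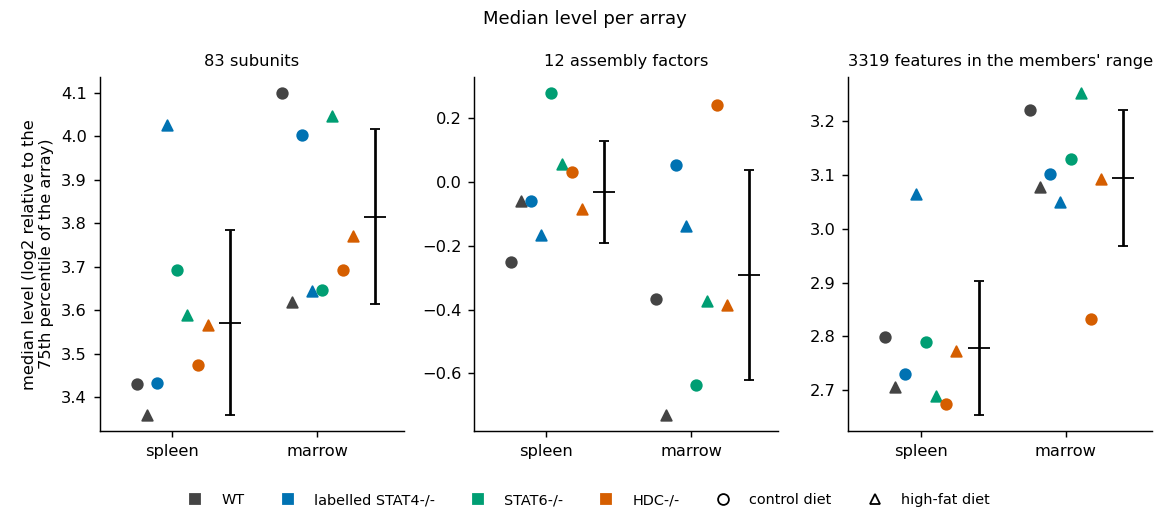
Median level per array (log2 relative to the array's 75th percentile, y axis) by tissue (x axis) for the subunits, the assembly factors and the features of like level. Each point is 1 array, coloured by genotype and shaped by diet, and the dash with its bar is the mean and SD of 8 arrays. The spleen array labelled STAT4-/- on HFD lies in the marrow range for subunits (4.03) and for features of like level (3.06). For subunits the STAT6-/- spleen array on control diet (3.69) does so too.

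The assembly factor with the largest difference was Ndufaf4, which takes part in building complex I. Its level in spleen ran from -0.02 through a median of 1.22 to 1.37, and in marrow from -1.37 through -0.76 to 0.82. Spleen was higher in 8 of 8 matched pairs, but the ranges overlapped through 2 arrays, the spleen array labelled STAT4-/- on HFD (-0.02) and the HDC-/- marrow array on control diet (0.82). The difference was 1.69 (SE 0.26, limma adjusted p 0.00166), or 3.23-fold. It was 2.04 without these 2 arrays, a rise that follows from leaving out the lowest spleen and the highest marrow value.

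Sdhaf1, which helps iron-sulfur clusters into a subunit of succinate dehydrogenase, read 1.49 at the lowest, 2.64 at the median and 3.40 at the highest in spleen. In marrow it read 0.57, 0.97 and 1.33. The 2 tissues did not overlap, with the spleen array labelled STAT4-/- on HFD again the lowest of its tissue. The difference was 1.67 (SE 0.21, limma adjusted p 0.000806), or 3.19-fold.

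Ndufaf5, which hydroxylates a core subunit of complex I, was the other member whose tissues did not overlap. It ran from -3.09 to -2.57 in spleen (median -2.84) and from -3.85 to -3.37 in marrow (median -3.64). Its difference was 0.78 (SE 0.16, limma adjusted p 0.00675). Non-overlap was found for 2 of the 95 members, a share near the 2.59% of all features.

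The remaining assembly factors called higher had smaller differences and overlapping ranges. They were Ndufaf2 (0.78), a chaperone of late complex I assembly, Sdhaf3 (0.74), which acts with Sdhaf1 on the iron-sulfur subunit, Ndufaf6 (0.63), also of complex I assembly, and Sdhaf4 (0.56), which helps the flavoprotein subunit Sdha into its complex. Each was higher in spleen in 7 of 8 pairs. On the HDC-/- marrow array on control diet Ndufaf2 read 0.09, Ndufaf6 0.18 and Sdhaf4 0.70, the highest marrow value of each. The 5 assembly factors not called were all below 0, from -0.05 for Ndufaf1 to -0.44 for Sdhaf2, the flavin-attaching factor of Sdha.

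The assembly factors that the rule leaves out were mostly of complexes III, IV and V. Beside 15.1% higher and 16.8% lower among all features, 5 of the 31 tested were higher and 2 lower, with a median of 0.16. Those called higher were Cox10 (heme synthesis), Sco2 (copper delivery), Uqcc1, Ecsit and Tmem70. Those called lower were Cox17 and Sco1, both of the copper route to complex IV.

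Among the subunits of complex I, Ndufa8 fell most. It is an accessory subunit on the intermembrane side. It read 1.99 at the lowest, 2.34 at the median and 3.25 at the highest in spleen, and 3.17, 3.44 and 3.81 in marrow. All spleen arrays except that labelled STAT4-/- on HFD (3.25) lay below every marrow array. The difference was -1.03 (SE 0.20, limma adjusted p 0.00488), with spleen lower in 8 of 8 pairs.

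The accessory subunits Ndufb7 (-0.83, limma adjusted p 0.0147) and Ndufv3 (-0.83, adjusted p 0.029) were lower as well, each in 7 of 8 pairs. Ndufs8, a core subunit that carries iron-sulfur clusters, was called higher at 0.56 (SE 0.19, limma adjusted p 0.0482). Its levels were 0.99 to 1.93 in spleen and 0.44 to 1.66 in marrow. The call was lost in limma's fit without the 2 arrays nearer the other tissue (0.44, adjusted p 0.14). Ndufa10, an accessory subunit, was higher at 0.64 (limma adjusted p 0.016).

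The 7 nuclear core subunits of complex I, which hold its flavin and iron-sulfur clusters, had a median difference of 0.16, and the 28 accessory subunits of -0.32. That split was made after the values were known. In the core group 1 of 7 was called higher and 0 lower, and in the accessory group 1 of 28 higher and 3 lower. Among all features 15.1% were called higher and 16.8% lower, so these counts do not set the groups apart. Core subunits not called included Ndufs1 (-0.09), Ndufv1 (0.22) and Ndufs3 (0.40).

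Complexes II and III had no member called. All 4 subunits of succinate dehydrogenase had negative values, from -0.05 for the flavoprotein Sdha to -0.51 for the membrane anchor Sdhd, with the smallest limma adjusted p at 0.0755 and 2 of 4 under an unadjusted p of 0.05. All 8 subunits of complex III were negative too, from -0.02 (Uqcr11) to -0.40 (Uqcrb), with 0 of 8 under an unadjusted p of 0.05. The core protein Uqcrc1 read -0.32 and the Rieske protein Uqcrfs1 -0.18. Cytochrome c1 (Cyc1), a complex III subunit outside the rule, differed by 0.04, and cytochrome c (Cycs) by -0.39 (limma adjusted p 0.119).

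Complex IV had 5 members called lower and 1 higher of 19, while 16.8% of all features were called lower and 15.1% higher. Cox4i2, the alternative form of subunit 4 known from lung and low oxygen, fell by 1.04 (SE 0.25, limma adjusted p 0.0112) and was lower in 8 of 8 pairs. Its levels were -1.49 to -0.16 in spleen (median -0.94) and -0.91 to 0.89 in marrow (median 0.35). The 2 lowest marrow arrays, which reached into the spleen range, were the control-diet arrays of HDC-/- (-0.91) and of the group labelled STAT4-/- (-0.82). The common form Cox4i1 differed by 0.02 (SE 0.17), with 4.83 to 5.42 in spleen and 4.83 to 5.35 in marrow.

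Cox7c, a small structural subunit, ran from 2.72 to 3.58 in spleen (median 3.09) and from 3.52 to 4.10 in marrow (median 3.76), a difference of -0.68 (SE 0.17, limma adjusted p 0.0161). Only the highest spleen array (labelled STAT4-/-, HFD) and the lowest marrow array (HDC-/-, control) met. Cox7a2 (-0.65), Cox5b (-0.63) and the testis form Cox6b2 (-0.91) were also lower, in 7 of 8 pairs each. The common form Cox6b1 (0.02) and Cox5a (-0.43, limma adjusted p 0.089), a nuclear subunit of all tissues, were not called. Neither were the tissue-restricted forms Cox6a2 (0.51), Cox7a1 (-0.17), Cox7b2 (0.12) and Cox8b (0.47), nor their common partners Cox6a1 (-0.21), Cox7b (-0.12) and Cox8a (-0.22), nor Ndufa4 (-0.09) and Cox7a2l (-0.02), which takes part in joining complexes III and IV. Ndufa4l2 was called higher at 0.87 (limma adjusted p 0.0333), but its probe was well above background on only 4 of 8 marrow arrays, and the sign turned under another background correction (-0.23).

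In complex V, beside 16.8% of all features lower and 15.1% higher, 2 of 17 were lower and 0 higher. They were Atp5j (-0.74, coupling factor 6 of the stalk) and Atp5l (-0.61, subunit g of the membrane part), each lower in 7 of 8 pairs. The catalytic subunits Atp5a1 (-0.18) and Atp5b (-0.16) were not called. Of the 3 genes for subunit c, which form the rotor ring, Atp5g1 read 0.35, Atp5g2 0.20 and Atp5g3 -0.12, none called by limma (smallest adjusted p 0.21). Atpif1, the inhibitor of ATP synthase and no member by name, differed by -0.32 (limma adjusted p 0.293).

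**Figure D3:**
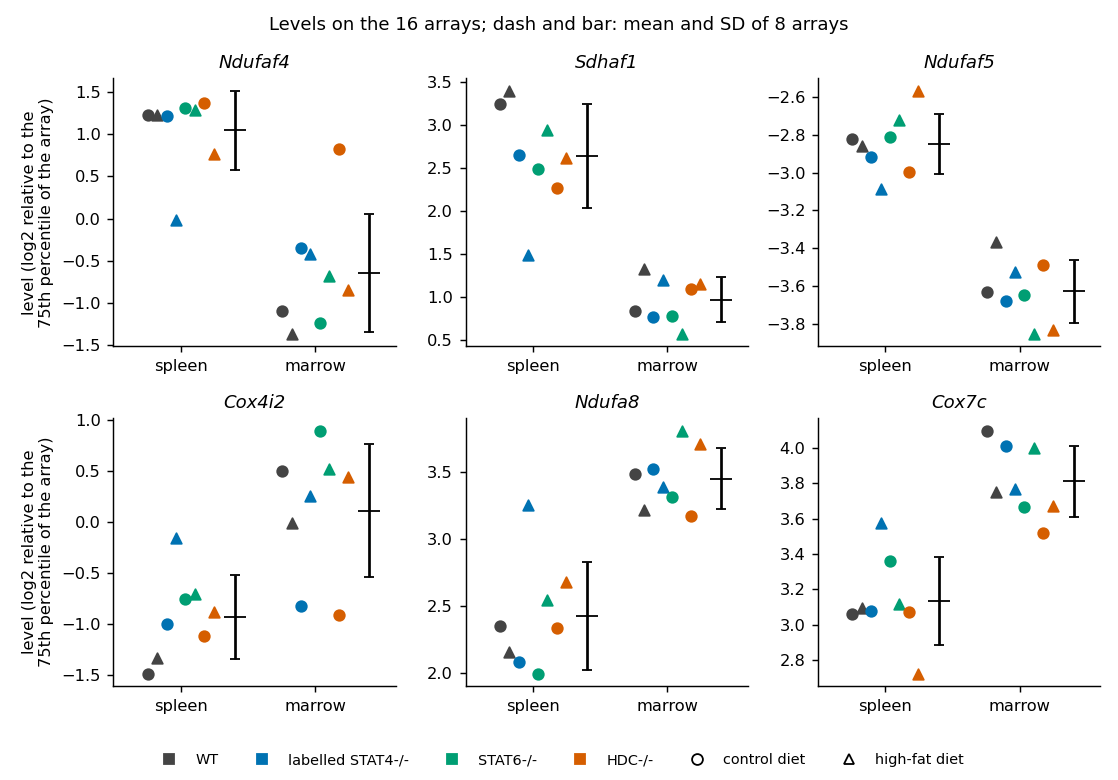
Level on each of the 16 arrays (log2 relative to the array's 75th percentile, y axis, scaled per gene) of 6 named members by tissue (x axis), coloured by genotype and shaped by diet, with the mean and SD of 8 arrays beside them. Ndufaf4, Sdhaf1 and Ndufaf5 sit higher in spleen and Cox4i2, Ndufa8 and Cox7c lower, and the spleen array labelled STAT4-/- on HFD (blue triangle) lies nearest to the marrow values in each panel.

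Sequences before the transcription start are shown for 4 of these genes, a pair that was higher (Ndufaf4, Sdhaf1) and a pair that was lower (Ndufa8, Cox7c) in spleen. They are the 250 bases upstream of the start in RefSeq's GRCm38.p6 (not the build of the probe design), read 5′ to 3′ on the strand of the gene, at chr4:24897833-24898082 (+) for Ndufaf4, chr7:30322376-30322625 (-) for Sdhaf1, chr2:36049339-36049588 (-) for Ndufa8 and chr13:86046796-86047045 (-) for Cox7c. Capitals mark matches on either strand to a motif of NRF1 (CGCANGCG), ETS factors such as GABPA (CCGGAAG), YY1 (AAGATGGC), ESRRA (TCAAGGTCA) or SP1 (GGGCGGG), factors known for driving mitochondrial genes.
Ndufaf4: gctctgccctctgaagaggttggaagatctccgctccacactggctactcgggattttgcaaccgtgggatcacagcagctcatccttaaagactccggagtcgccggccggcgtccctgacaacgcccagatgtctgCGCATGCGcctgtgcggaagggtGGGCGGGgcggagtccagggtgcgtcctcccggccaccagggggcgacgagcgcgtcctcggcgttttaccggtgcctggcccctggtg
Sdhaf1: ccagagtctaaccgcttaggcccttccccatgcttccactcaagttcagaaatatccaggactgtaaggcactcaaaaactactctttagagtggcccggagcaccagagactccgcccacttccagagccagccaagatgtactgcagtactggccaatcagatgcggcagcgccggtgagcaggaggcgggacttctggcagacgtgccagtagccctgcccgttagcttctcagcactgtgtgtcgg
Ndufa8: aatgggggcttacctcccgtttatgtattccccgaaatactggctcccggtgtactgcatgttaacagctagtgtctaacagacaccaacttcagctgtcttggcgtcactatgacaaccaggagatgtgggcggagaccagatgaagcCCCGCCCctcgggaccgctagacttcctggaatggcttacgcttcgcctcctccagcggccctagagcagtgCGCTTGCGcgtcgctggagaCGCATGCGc
Cox7c: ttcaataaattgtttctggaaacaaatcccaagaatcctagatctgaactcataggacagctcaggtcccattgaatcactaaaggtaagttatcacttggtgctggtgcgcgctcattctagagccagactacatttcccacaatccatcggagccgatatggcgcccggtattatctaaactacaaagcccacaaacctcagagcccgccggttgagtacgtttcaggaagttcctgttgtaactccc
Ndufaf4 had 1 NRF1 match, starting 112 bases before the start, and 1 SP1 match at 89 bases. Ndufa8 had 2 NRF1 matches, at 29 and 9 bases, and 1 SP1 match at 101 bases. The printed stretches of Sdhaf1 and Cox7c held none of the 5 motifs, and Sdhaf1 had an ETS match in the bases after its start, which the shares given next include. NRF1 letters were thus found in front of a gene that was higher and of one that was lower in spleen.

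RefSeq's table held a window for 80 of the 97 members (250 bases before to the first bases after the start, 300 in all). The NRF1 motif was in 31 of 80 members (38.8%) against 9.22% of all 27025 genes of the table and 12.5% of its protein-coding genes. The ETS motif was in 27.5% of members against 9.93% of all genes, and YY1 in 13.8% against 3.19%. SP1 was in 37.5% against 27.9% of all genes and 36.9% of protein-coding genes, and ESRRA in 2 of 80 members against 0.466% of all genes. Motifs share bases only where 2 matches overlap, and a match describes letters, not binding. Among members with a window, 5 of 8 called higher in spleen and 3 of 9 called lower held NRF1.

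Other mitochondrial gene lists gave their own counts in the tissue comparison, on lists drawn up with earlier results of these data known. Among all features 15.1% were higher and 16.8% lower. Mitochondrial ribosomal proteins had 13 higher and 5 lower of 78 (median 0.09), and chaperones, proteases and import proteins 6 higher and 1 lower of 15, among them Hspe1, Hspa9, Phb and Phb2. The TCA cycle, which feeds NADH to complex I, had 2 higher (Idh3b, Suclg2) and 2 lower (Dlst, Pdha1) of 17. Carriers and porins had 0 higher and 1 lower (Vdac2) of 7, and mitochondrial antioxidants 2 higher (Prdx3, Txnrd2) and 1 lower (Gpx4) of 7. The 13 protein genes of the mitochondrial genome were not analysed here.

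The regulators of mitochondrial biogenesis split evenly, with 5 of 16 higher and 5 lower. Tfam, which packages and transcribes the mitochondrial genome, was higher in spleen by 0.99 (SE 0.21, limma adjusted p 0.00767), at 0.56 to 1.92 against -0.14 to 1.51 in marrow. The coactivators Ppargc1a (2.23) and Ppargc1b (1.86) were also higher, but Ppargc1a was well above background on 5 of 8 marrow arrays and Ppargc1b on 3. Polrmt and Myc were the others higher. Nrf1, Gabpa with its partner Gabpb1, Esrra and Yy1, the factors of the motifs above other than SP1, were lower in spleen. Glycolysis genes, the other ATP route, had 1 higher (Aldoc) and 11 lower of 20 (median -0.74), among them Gapdh, Pgk1 and Eno1.

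Markers of other cells and of dividing cells moved with the tissue beside these results. Cell cycle genes were lower in spleen in 21 of 24, with a mean level over the list of 0.19 to 2.36 on the spleen arrays and 2.29 to 2.77 on the marrow arrays. Granulocyte precursor markers were lower in 5 of 6 (0.57 to 5.94 against 5.03 to 5.75), neutrophil markers in 4 of 9 (4.15 to 5.95 against 5.21 to 6.12), and both CD11b chains, Itgam and Itgb2, were lower. Red pulp macrophage markers were higher in 8 of 10 (0.17 to 2.23 against -1.84 to 0.83), dendritic cell markers in 8 of 9 (-2.06 to 0.63 against -3.28 to -1.97), plasma cell markers in 4 of 5 and erythroid markers in 4 of 7. B cell markers were higher in 8 of 8 (-0.77 to 2.46 against -2.63 to -0.18), T cell markers in 7 of 8 with 1 lower, and natural killer markers in 6 of 6. Pro-B and pre-B markers were lower in 5 of 8 with 1 higher, platelet markers in 2 of 6, and monocyte markers split 1 and 1 of 5. Of the 9 dendritic cell markers, 8 were above background on every marrow array, and Xcr1 was so on 0 of 8. All 8 B cell markers were above it on every spleen array and 7 of 8 on every marrow array. The part of these cells in the members' differences was not tested.

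The count of members called was sensitive to single arrays. It was 26 without the 2 arrays nearer the other tissue (10 higher, 16 lower) and 3 without the 4 control-diet arrays (2 higher, 1 lower), a fit with fewer residual degrees of freedom. All features moved the same way, with 11082 and 3718 called in these fits against 9176 with all arrays. Leaving out 1 array moved it from 20 to 8 (WT marrow control), 9 (labelled STAT4-/- marrow control), 10 (WT spleen HFD, STAT6-/- spleen HFD, HDC-/- spleen control or HDC-/- marrow HFD), 11 (labelled STAT4-/- spleen control) or 13 (labelled STAT4-/- marrow HFD). Ndufaf4, Sdhaf1 and Cox4i2 stayed called by limma under each of the 13 other settings and each of the 16 single-array omissions. For Ndufaf4 the adjusted p stayed at or below 0.0118, for Sdhaf1 at or below 0.0186 and for Cox4i2 at or below 0.0378. Ndufa8 lost its limma call only without the 4 control-diet arrays (-0.90, adjusted p 0.0813), where Ndufaf5 (0.84, adjusted p 0.0704) and Cox7c (-0.62, adjusted p 0.153) lost theirs too. Ndufaf2, Ndufaf5 and Sdhaf3 also held under each single-array omission, but Ndufaf2 (0.93) and Sdhaf3 (0.80) were not called without the 4 control-diet arrays. Normexp background correction ended the limma calls of Ndufaf5 (0.26, adjusted p 0.262) and Sdhaf3 (0.47, adjusted p 0.0525), and the mean of probes that of Ndufaf5. Cox7c was not called under quantile normalization or with the mean of probes. Ndufa10 was lost without the marrow control array labelled STAT4-/-, Ndufb7 without that of WT, and Cox7c without either. The other 10 calls (Ndufs8, Sdhaf4, Ndufaf6, Ndufa4l2, Atp5l, Cox5b, Atp5j, Cox6b2, Cox7a2 and Ndufv3) held in 2 to 8 of the 16 omissions, and each was lost without WT spleen HFD, STAT6-/- spleen HFD, HDC-/- spleen control, WT marrow control or HDC-/- marrow HFD. The split of higher and lower calls moved with the scaling, to 7 and 13 with the median of each array as its base, 14 and 8 with quantile normalization and 8 and 11 with normexp background correction. Under normexp the median of all features moved from -0.05 to -0.47, and the members' median relative to it turned from -0.16 to 0.29. The assembly factors' median relative to all features was 0.65 and stayed between 0.49 and 0.87.

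High-fat diet gave no call. In spleen, marrow, both tissues together and in the difference between the tissues, limma called 0 members and 0% of all features. At an unadjusted p under 0.05 stood 0 of 95 members in spleen (4.46% of all features), 1 in marrow (6.07%), 4 over both tissues (12.6%) and 0 for the difference (1.12%). The smallest adjusted p of a member was 0.388 over both tissues. The members' median difference was 0.11 in spleen (all features 0.14) and -0.09 in marrow (all features 0.11).

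Single genotypes gave medians in both directions. In spleen the members' median change on HFD was -0.03 in WT, 0.55 on the arrays labelled STAT4-/-, -0.15 in STAT6-/- and 0.12 in HDC-/-. In marrow it was -0.41 in WT, -0.33 on the arrays labelled STAT4-/-, 0.33 in STAT6-/- and 0.06 in HDC-/-. Of 95 members 80 were above 0 in spleen labelled STAT4-/-, the pair that holds the array nearest the marrow, and 85 in STAT6-/- marrow, against 13 in WT marrow and 18 in marrow labelled STAT4-/-. The median of all features was 0.38 in that spleen pair, which 61 members exceeded, -0.01 in STAT6-/- marrow, -0.02 in WT marrow and 0.23 in marrow labelled STAT4-/-. Each of these is 1 pair of pools with no repeat. In HDC-/- and on the arrays labelled STAT4-/-, the sex-linked signal that set the control-diet arrays apart goes with diet. In these pairs a diet difference cannot be told apart from it.

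**Figure D4:**
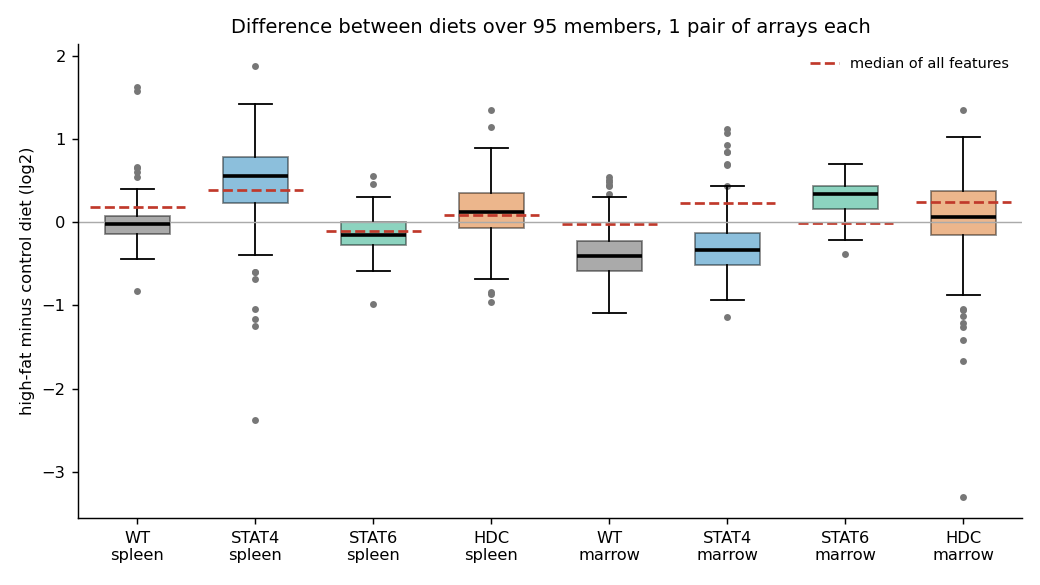
High-fat minus control diet (log2, y axis) over the 95 tested members for the 8 pairs of arrays (x axis). Boxes span the quartiles with the median, whiskers reach 1.5 box lengths, points lie beyond, and the dashed line is the median of all features in that pair. The pairs' medians run from -0.41 in WT marrow to 0.55 in spleen labelled STAT4-/-.

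The members' position within the array showed the same lack of separation. Set against the median of all features of the array, the members stood at 6.35 ± 0.14 on control and 6.45 ± 0.28 on HFD in spleen, and at 6.77 ± 0.21 and 6.62 ± 0.31 in marrow (SD, n = 4 each). The ranges overlapped within each tissue. The difference in diet response between the tissues was above 0 for 79 of 95 members, with a median of 0.21 (all features 0.04), but none was called and the smallest limma adjusted p was 1.

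Of the members with the smallest p for diet, Cox6a2, the muscle form of subunit 6a, had the largest values. In marrow it read -0.95 in WT, -0.64 in the group labelled STAT4-/-, -2.03 in STAT6-/- and -0.00 in HDC-/- on control diet. On HFD it read -1.88, -1.78, -2.02 and -3.30 in the same order. The STAT6-/- values were level, the other 3 pairs read lower on HFD, and the HDC-/- pair was the widest. In the HDC-/- pair and the pair labelled STAT4-/-, diet cannot be told apart from the sex-linked signal of the control-diet arrays. The marrow difference was -1.34 (SE 0.57, limma adjusted p 0.696), and in spleen it was -0.61 (SE 0.57), below 0 in 2 of 4 pairs. Single arrays moved both, the marrow value to -0.69 without the HDC-/- control array and the spleen value to -0.02 without the control array labelled STAT4-/-. The main form Cox6a1 ranged from 5.05 to 5.82 in spleen and 5.29 to 5.77 in marrow.

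The other members with the smallest p for diet had smaller values, none called. In spleen Ndufa11 (accessory, complex I) read 0.58 and Cox7b2 0.64 and Cox8b 0.52, both faint, while Sdhaf4 read -0.44 and Ndufaf4 -0.47. In marrow Atp5d (the delta subunit of ATP synthase) read 0.63, Ndufs8 0.49, Atp5g1 -0.52 and Ndufaf6 -0.52. Over both tissues Ndufab1, the acyl carrier protein of complex I, read -0.40 (limma adjusted p 0.393). For the difference between tissues Ndufaf8 (0.52), Ndufc1 (0.51) and Ndufs5 (0.47) stood at one end and Atp5d (-0.41), Sdhaf1 (-0.24) and Ndufa10 (-0.18) at the other.

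No member was called between genotypes averaged over tissues and diets. limma called 0 of 95 members for the arrays labelled STAT4-/- against WT (0.0174% of all features), 0 for STAT6-/- against WT (0.0313%), 0 for HDC-/- against WT (0.153%) and 0 for HDC-/- against STAT6-/- (0.0104%). The 3 comparisons with WT share the WT arrays. At an unadjusted p under 0.05 stood 4, 1, 1 and 0 members, against 9.94%, 6.83%, 10.9% and 6.44% of all features. Member medians were 0.11, 0.10, 0.03 and -0.06, where all features had 0.20, -0.01, -0.07 and -0.09.

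Cox6b2, the testis form of subunit 6b, had the largest difference from WT of all members in STAT6-/- and on the arrays labelled STAT4-/-. In spleen it read -1.56 and -1.15 in WT (control, then HFD), -0.66 and 1.22 on the arrays labelled STAT4-/-, 1.18 and 0.64 in STAT6-/- and -0.89 and 0.01 in HDC-/-. In marrow it read 0.59 and 0.24 in WT, 0.39 and 1.24 on the arrays labelled STAT4-/-, 0.69 and 0.87 in STAT6-/- and 0.79 and 1.27 in HDC-/-. WT spleen was the lowest pair, and the marrow pairs overlapped. Against WT the differences were 1.31 in STAT6-/- (SE 0.37, limma adjusted p 0.406), 1.01 on the arrays labelled STAT4-/- (adjusted p 0.462, and 0.61 without their spleen array on HFD) and 0.77 in HDC-/- (adjusted p 0.493).

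The other members under an unadjusted p of 0.05 were Cox8b, Cox7b2 and Sdhaf1 on the arrays labelled STAT4-/- (0.89, 0.88 and -0.68) and Cox8b in HDC-/- (-0.58). On the WT arrays and those labelled STAT4-/-, Cox7b2 was well above background on 1 of 4 in spleen and 2 of 4 in marrow. Its 0.88 therefore carries no measured size. For Sdhaf1 the value was below 0 in 4 of 4 pairs on the arrays labelled STAT4-/- (limma adjusted p 0.502) and in STAT6-/- (-0.51, adjusted p 0.861). Without the spleen array labelled STAT4-/- on HFD, the former Sdhaf1 value was -0.31. Ndufa4l2 read -0.61 in STAT6-/- and -0.82 in HDC-/-, and Cox8b -0.43 in STAT6-/-, but these probes were well above background on 0 of the 4 marrow arrays of these genotypes, so their values carry no measured size. STAT6-/- further held Cox4i2 at 0.57 and Ndufv1, the NADH-binding core subunit, at 0.37. HDC-/- held Ndufa10 at 0.40, Sdhaf4 at 0.45 and Atp5md, a small membrane subunit of ATP synthase, at -0.46 against WT. Against STAT6-/-, which shares its slides, HDC-/- had Sdhaf4 at 0.44 and Sdhaf3 at 0.29, and Cox4i2 at -0.60, Cox6b2 at -0.55 and Cox7c at -0.29. None of these passed the test.

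The genotype differences in spleen were set against those in marrow. For the arrays labelled STAT4-/- limma called 0 members (0% of all features higher), with 3 of 95 under an unadjusted p of 0.05, Cox8b (1.79), Cox7b2 (1.88) and Ndufaf8 (-1.17). For STAT6-/- 2 members were called higher, where 7.62% of all features were, and for HDC-/- 2, where 16.4% were. Both times these were Cox7b2 (3.04 and 3.30) and Cox8b (3.22 and 3.77). Their probes were well above background on 0 of the 4 marrow arrays of STAT6-/- and HDC-/-, the slide with the lowest signal, so that those marrow values are only an upper bound. Cox7b2 was also so on only 1 of 4 arrays of the slide that holds WT spleen, and these differences carry no measured size. Requiring signal above background on all 16 arrays took both genes out of the test, and 0 of the remaining members were called in either comparison. The other members with small p were Cox6b2 (1.90, limma adjusted p 0.156) for STAT6-/-, and Ndufaf8 (-1.20, adjusted p 0.163) and Ndufaf4 (-1.38, adjusted p 0.264) for HDC-/-.

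Members read by several probes agreed in direction for the most part. For the tissue difference 22 members had 51 usable probes, and the sign differed between probes in 3 (Ndufb5, Sdhb and Cox7a2l), none of them called. The largest gap between probes of a gene was 0.64, in Ndufb5.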

How the data were processed

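The deposited values are spot intensities that the authors read from 16 one-colour arrays with Agilent Feature Extraction 11.0.1.1 (protocol GE1_1100_Jul11), per the file headers. The software wrote a background-subtracted intensity per spot, with no scaling between arrays. Of 39429 probes, 27234 (69.1%) matched a RefSeq mouse symbol through their accession, which gave 20659 symbols, and 305 probes that the software marked on some array were left out. The log2 intensity minus the 75th percentile of its array is the level. Each gene was read from its brightest usable probe, and features with signal well over background on fewer than 2 arrays were dropped.

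The tests were fitted by limma 3.58.1 (with version 1.17.8 of data.table, in R 4.3.3) over all 28783 features, with a mean per genotype and tissue, a diet term per tissue (6 residual degrees of freedom) and empirical Bayes variances. They were two-sided, with calls at a Benjamini-Hochberg adjusted p under 0.05. With 1 array per combination, p-values measure the interactions left out of the model together with technical spread. The number of arrays limits the precision.

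Alternatives changed the scaling (median, quantile), the background correction (normexp with offset 50, on the median spot and background signals), the filter, the probe rule, the spots kept, the model (additive with 10 and pairwise with 3 residual degrees of freedom), the prior, the slide as a random block, and the arrays. Named members are those called with the same direction in every pair (up to 10 a side, ranked by size), or the 3 smallest p on a side where fewer than 3 qualified, with 1 or 2 core subunits per complex and the isoforms. The rest were added after their values were seen, and 1 member that the rule names is not reported here. The members and lists were chosen with earlier results of these data known. The fit was also run on simulated arrays with tissue differences put in. It called 22 of 100 genes given a difference of 1 on the log2 scale and 77 of 100 given 2. No diet or genotype difference was put in. Promoter windows came from RefSeq (GRCm38.p6), and figures were drawn with matplotlib 3.10.9.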

Additional observations from a re-analysis of the deposited data

Results flagged for a closer look

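Dixon's ratio, the gap to the nearest array over the whole range, was taken for 51 quantities in 8 spleen and 8 marrow arrays (102 groups). In 11 groups the highest or lowest array exceeded the critical value for 8 samples. That value's 5% level holds for 8 replicates, while these arrays differ in genotype and diet and the quantities share genes. It therefore gives no expected count here. The spleen array labelled STAT4-/- on HFD accounted for 7 of the 11 groups. It was the highest spleen array for Atp5j (5.11), Atp5l (5.44), Cox5b (5.16), the median of the members relative to all features (6.88) and that of the complex I accessory subunits (6.91), and the lowest for Ndufaf4 (-0.021) and Sdhaf3 (-2.24). The HDC-/- marrow array on control diet was the highest of its tissue for Ndufaf4 (0.82) and Sdhaf4 (0.70) and the lowest for Uqcrfs1 (3.50). The WT spleen array on control diet was the lowest for Cox7b2 (-8.92), a probe near background.

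limma's interaction term (difference from WT in spleen minus that in marrow) passed the threshold for Cox7b2 (3.04) and Cox8b (3.22) in STAT6-/- and for Cox7b2 (3.30) and Cox8b (3.77) in HDC-/-. Both probes were well above background on 0 of the 4 STAT6-/- and HDC-/- marrow arrays. On the slide of the WT spleen arrays, shared with those labelled STAT4-/-, Cox7b2 was so on 1 of 4 arrays and Cox8b on 3 of 4. On the slide of the WT marrow arrays, Cox7b2 was so on 2 of 4. The values therefore carry no measured size.

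In some pairs of groups every array pair of one moved against every pair of the other. The members' median relative to all features, spleen minus marrow, averaged 0.27 in WT, -0.25 in STAT6-/- (one pair at -0.005) and -0.43 in HDC-/-. The members' own medians were below 0 in both WT pairs (-0.66 and -0.23) and both HDC-/- pairs (-0.21 and -0.15), while the median of all features was -0.81 and -0.62 in WT and 0.37 and 0.13 in HDC-/-, whose marrow arrays lie on the dimmest slide. With signal required on all 16 arrays, the HDC-/- by tissue median of the members relative to all features went from -0.36 to -0.022. Against WT it averaged -0.23 in spleen and 0.072 in marrow on the arrays labelled STAT4-/-, and -0.20 in spleen and 0.42 in marrow in HDC-/-. These differences were not tested.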

How the results depend on the processing

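No member passed limma's threshold for diet or for a genotype against WT or STAT6-/- under the alternatives and single-array omissions run. In these fits the 12 assembly factors' tissue median stayed above that of all features, although it lay below it in the HDC-/- pair on control diet (-0.49). Depth is given by signal over background, which was lowest on the STAT6-/- and HDC-/- marrow slide. No paired analysis was possible because every label carries replicate number 1, so that this number cannot serve as a block. Pairs of arrays were matched by genotype, tissue and diet instead, and the main model already takes diet within each genotype and tissue.

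For the tissue comparison, the 10 members called lower became 17 with signal required on all 16 arrays, 18 in the additive model, 19 with a trended prior, 16 with the slide as a block and 16 without the 2 arrays that lay closer to the opposite tissue. Dropping the 4 control-diet arrays of HDC-/- and of the group labelled STAT4-/- left 3 members (2 higher, 1 lower) and 3718 features called. Normexp called 15296 features, turned the members' median relative to all features to 0.29, and reversed the faint Cox7b2 (-0.63), Cox8b (-0.64) and Ndufa4l2 (-0.23). Leaving out 1 array gave 8 to 23 members called (5 to 9 higher, 2 to 15 lower) and 5749 to 10662 features. The cause was not tested.

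The 5 features called for the arrays labelled STAT4-/- against WT became 15 with normexp, 14 with signal on all 16 arrays, 25 in the additive model, 28 in the pairwise model, 25 with the slide block, 3 without the 2 arrays and 2 without the 4, and 3 to 8 leaving out 1 array. For STAT6-/- against WT, 9 became 15 with normexp and 16 in the pairwise model (3 to 16 leaving out 1). For HDC-/- against WT, 44 became 76 with normexp, 129 pairwise, 69 with the trended prior, 19 without the 2 arrays and 4 without the 4 (7 to 232 leaving out 1). For HDC-/- against STAT6-/-, 3 became 5 with median scaling, 13 with quantile, 10 with normexp, 5 with signal on all 16 arrays, 5 with the mean of probes, 6 with marked spots kept, 13 additive, 54 pairwise, 8 with the trended prior and 13 with the slide block (2 to 13 leaving out 1). Diet in spleen had 1 feature with normexp and 2 pairwise, and diet over both tissues 1 and 6.

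For the genotype by tissue terms, the 2 members called in STAT6-/- became 0 with median scaling, quantile, normexp, signal on all 16 arrays, the trended prior and without the 4 arrays (0 to 2 leaving out 1). The 2 in HDC-/- became 0 with quantile, normexp, signal on all 16 arrays and without the 4 (0 to 3 leaving out 1). The filter on all 16 arrays removes these 2 genes, Cox7b2 and Cox8b, before the test. The HDC-/- median relative to all features was -0.36 and became -0.15 with quantile, -0.65 with normexp and -0.022 with signal on all 16 arrays. That of the arrays labelled STAT4-/- was -0.26 and became -0.57 with normexp and 0.10 without the 4.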
